A study of Homo sapiens with 8 samples.

Results

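Heparan sulfate is built and edited by a small set of enzymes, and 10 of their genes were followed here across 3 culture substrates: the polymerases EXT1 and EXT2, the epimerase GLCE, the sulfotransferases NDST1, NDST2, HS2ST1, HS6ST1 and HS6ST2, and the extracellular sulfatases SULF1 and SULF2. They were taken by name, with earlier results of these data known, from the 58217 genes with a matched transcript. All 10 were among the 18201 genes that passed the filter on low counts. The cells were oligodendrocyte precursor cells (OPCs), all derived from the established embryonic stem cell line H9. They had been patterned with retinoic acid and a Smoothened agonist, expanded over several passages and then kept for 2 days on one of the substrates, without the SOX10 overexpression that the study used elsewhere to obtain oligodendrocytes.

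The first substrate was Matrigel, the control, a basement membrane extract that itself contains the heparan sulfate proteoglycan perlecan (2 libraries, replicates 2 and 3). The second was VN, full-length vitronectin (3 libraries). The last was VNP2, a designed peptide with the RGD cell-binding motif of vitronectin, joined to a mussel adhesive protein and fixed to an activated plate (3 libraries), so that peptide, carrier and plate surface cannot be told apart. The cells of every group came from the H9 line alone and had been induced on Matrigel, and neither the labels nor the methods say whether replicates were separate differentiations. The p-values therefore measure the spread between these libraries, which may be technical.

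Heparan sulfate is a long sugar chain carried by a few core proteins at the cell surface and in the matrix. EXT1 and EXT2 work as a complex that lengthens the chain, the NDST enzymes replace acetyl by sulfate on glucosamine, GLCE turns glucuronic into iduronic acid, and further sulfotransferases decorate the sugar ring. The resulting pattern of sulfate groups sets which growth factors, such as FGF, PDGF and WNT ligands and sonic hedgehog, the chain holds. SULF1 and SULF2 act last, outside the cell, and remove sulfate from the sixth carbon of glucosamine. In the ventral neural tube, Sulf1 of the floor plate is known for its part in sonic hedgehog signalling at the time when OPCs arise.

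The promoter of SULF2 is shown because SULF2 had the widest difference between substrates. RefSeq (GRCh38.p14) places its start on the minus strand of chromosome 20, and the window from 250 bases before to 50 bases after it is chr20:47786578-47786877. Transcripts that start in this window carried 73.4% of the SULF2 abundance, with the leading one, SULF2-211, starting 11 bases downstream of the RefSeq start. Capitals mark the E box letters CANNTG, which read the same on both strands.
SULF2 promoter: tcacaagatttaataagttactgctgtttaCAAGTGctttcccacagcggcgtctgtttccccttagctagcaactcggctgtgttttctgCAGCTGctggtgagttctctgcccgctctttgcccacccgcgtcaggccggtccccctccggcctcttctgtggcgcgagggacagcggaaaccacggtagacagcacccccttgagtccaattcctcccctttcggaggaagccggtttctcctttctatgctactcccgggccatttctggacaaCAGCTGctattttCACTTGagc
The window held 4 E boxes and no match to the GC box letters GGGCGG or the TATA letters TATAAA on either strand. Of 35116 human promoters of this length, 68.7% held an E box, 44.95% the GC box and 11.5% the TATA letters. Among members with little or no difference between substrates, the windows of HS2ST1 and GLCE held 4 and 5 GC boxes and 1 E box each, and that of HS6ST2 held 2 E boxes and no GC box. For HS6ST1 no transcript abundance started in the RefSeq window, its leading transcript lying 291 bases downstream. These matches are letters in a window and not measured binding sites.

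The libraries held 37997896 to 39429453 estimated counts. VN replicate 1 stood apart from the other VN libraries: the median chi-square per gene between libraries of a group was 2.26 and 2.62 for its pairs with VN replicates 2 and 3, and 0.708 to 1.16 for all other pairs. Calls of the 10 members that turn on it are given without it as well. OPC is the study's name for these cultures, which also held RNA of neuronal and floor plate markers, given below. The OPC markers were mixed. OLIG2 ran from 39.96 to 54.6 TPM (transcript abundance per library, corrected for transcript length) and PDGFRA from 3.67 to 4.98 TPM, whereas SOX10 was at 0.0778 TPM or less in every library.

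On both vitronectin substrates SULF2 fell to less than 0.7 of its level on Matrigel (fold 0.682 on VN and 0.677 on VNP2), and HS6ST1, which adds the sulfate that the SULF enzymes take off, fell by a smaller amount. NDST1 fell on VN and SULF1 rose slightly on VNP2. The other 6 enzymes passed no test between substrates. On VN, 3 of the 10 members were called, all of them lower, where 15.3% of all tested genes were called, 5.66% higher and 9.6% lower. A gene was called when its p from the quasi-likelihood test of edgeR, adjusted by Benjamini and Hochberg over every tested gene, was under 0.05. The members' median log2 fold change was -0.13, against 0.0044 over all genes. On VNP2, 3 of the 10 were called against Matrigel, 1 higher and 2 lower, where 16.6% of all genes were called, 7.44% higher and 9.13% lower, and the median was -0.03. The libraries of 5 members on VN and of 7 on VNP2 did not overlap those on Matrigel, against 44.4% and 48.1% of all genes. Both comparisons share the 2 Matrigel libraries. Across the 3 substrates together 4 members were called (SULF1, SULF2, HS6ST1 and NDST1), where 19.3% of all genes were.

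**Figure D1:**
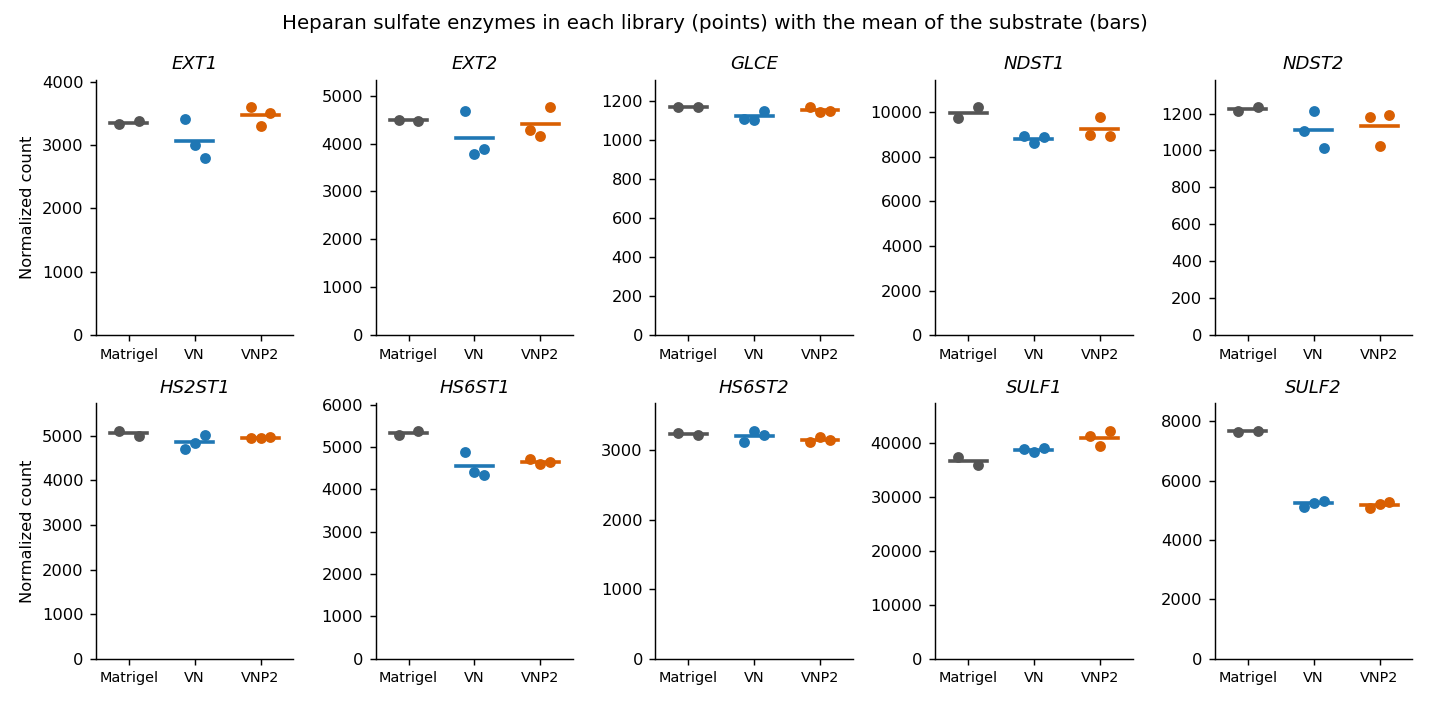
Normalized count of each of the 10 heparan sulfate enzymes (vertical axes from 0) in each library, by substrate; each point is 1 library and each bar the mean of its substrate. SULF2 lies at 7658 and 7684 on Matrigel and between 5068 and 5333 in the 6 libraries on VN and VNP2, and the other panels show smaller differences or none.

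The levels of the members differed far more from one another than between substrates. SULF1 had the highest TPM of the 10 in all 8 libraries, 349 to 430, and its mean of 393 TPM was above that of 98.2% of the tested genes. Every SULF1 library was above every SULF2 library on each substrate. SULF2 came second on Matrigel, at 83.7 and 84.5 TPM, above every library of NDST1 there, but on VN and VNP2 the libraries of SULF2, at 58.0 to 62.6 TPM, overlapped those of NDST1. The means of NDST1, EXT2, HS6ST1, HS2ST1 and EXT1 over the 8 libraries followed closely at 62.1, 55.3, 53.1, 50.7 and 46.1 TPM. These values sum all transcripts of a gene, coding or not. The only coding transcript of EXT1, EXT1-201, averaged 14.0 TPM, so the place of EXT1 holds only for all its transcripts together. Within this middle group NDST1 and EXT2, HS6ST1 and HS2ST1 overlapped on VN and VNP2, while HS2ST1 was above EXT1 in every library of each substrate. HS6ST2 averaged 39.1 TPM. NDST2 at 20.4 TPM and GLCE at 15.5 TPM were the ninth and the tenth in every library, and their libraries did not overlap on any substrate.

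The chain polymerases EXT1 and EXT2 did not pass a test. EXT1 (chromosome 8, 117794490 to 118111853, minus strand) had normalized counts of 3326 and 3386 on Matrigel, against 3404, 2999 and 2802 on VN and 3599.5, 3304 and 3501 on VNP2. VN replicate 1 was the only VN library above both Matrigel libraries. The log2 fold change of EXT1 against Matrigel was -0.13 ± 0.07 (SE) for VN (adjusted p = 0.26) and 0.05 ± 0.07 for VNP2 (adjusted p = 0.73). EXT2 (chromosome 11, 44095549 to 44245429, plus strand) had 4498 and 4467 on Matrigel. Its VN libraries were at 4675, 3784 and 3879 and its VNP2 libraries at 4283, 4162 and 4761. Here too VN replicate 1 was above the other VN libraries, and neither the log2 fold change for VN, -0.13 ± 0.09, nor that for VNP2, -0.03 ± 0.09, was called (adjusted p = 0.37 and 0.88). Without VN replicate 1 both polymerases were called lower on VN, EXT1 at -0.21 (adjusted p = 0.019) and EXT2 at -0.22 (adjusted p = 0.026). That fit called 3899 of 18124 genes on VN, in place of 2778 of 18201. Both polymerases were also called on VN when transcript lengths were left out of the fit (adjusted p = 0.034 and 0.028). EXT2 was then called lower on VNP2 too (-0.17, adjusted p = 0.029).

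NDST1, which opens the modification of the chain, was lower on VN. NDST1 (chromosome 5, 150485818 to 150558211, plus strand) had 9745 and 10233 normalized counts on Matrigel, against 8946, 8603 and 8875 on VN and 8988, 9778 and 8933 on VNP2. The VN libraries were all below those on Matrigel, while VNP2 replicate 2 lay between the Matrigel libraries. NDST1 fell by 0.18 ± 0.05 (log2, SE) on VN (95% interval -0.28 to -0.08, adjusted p = 0.023), and its difference on VNP2 was -0.11 ± 0.05 (adjusted p = 0.13). The call on VN was lost without Matrigel replicate 2 (adjusted p = 0.066), Matrigel replicate 3 (0.19), VN replicate 2 (0.073) or VN replicate 3 (0.056). NDST1 was called lower on VNP2 as well without VNP2 replicate 2 (-0.16, adjusted p = 0.038) and when transcript lengths were left out of the fit (-0.16, adjusted p = 0.014). NDST2 (chromosome 10, 73801911 to 73811798, minus strand), the sister enzyme, had 1212 and 1235 on Matrigel, 1013 to 1216 on VN and 1024 to 1194 on VNP2. Its log2 fold changes of -0.14 ± 0.09 and -0.11 ± 0.09 were not called (adjusted p = 0.32 and 0.45), with intervals of -0.33 to 0.06 and -0.30 to 0.08 that include the difference of NDST1.

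GLCE and HS2ST1, which make and sulfate iduronic acid, were the steadiest together with HS6ST2. GLCE (chromosome 15, 69160584 to 69272217, plus strand) had 1171 normalized counts in both Matrigel libraries, 1112, 1103 and 1153 on VN, and 1171, 1145 and 1149 on VNP2. The interval of its log2 fold change was -0.17 to 0.05 on VN and -0.13 to 0.09 on VNP2 (adjusted p = 0.48 and 0.85). HS2ST1 (chromosome 1, 86914648 to 87109998, plus strand) had 5107 and 5001 on Matrigel, against 4695, 4843 and 5013 on VN and 4944, 4950.0 and 4976 on VNP2. Its intervals were -0.14 to 0.03 on VN and -0.11 to 0.06 on VNP2 (adjusted p = 0.34 and 0.69). These intervals leave room for a change of about 11.3% in GLCE and 9.49% in HS2ST1 on VN, in the direction of lower levels.

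The enzymes HS6ST1 and HS6ST2 both add sulfate at the sixth carbon of glucosamine. HS6ST1 (chromosome 2, 128236716 to 128318577, minus strand) had 5278 and 5380.3 normalized counts on Matrigel, against 4886, 4400.5 and 4333 on VN and 4719.7, 4585 and 4636 on VNP2. All 6 libraries on VN and VNP2 were below both on Matrigel. HS6ST1 fell by 0.23 ± 0.05 on VN (adjusted p = 0.013) and by 0.20 ± 0.05 on VNP2 (adjusted p = 0.024), a change of -14.8% and -12.8%. The call on VN was lost without Matrigel replicate 2 (adjusted p = 0.073) or 3 (0.10). That on VNP2 was lost without Matrigel replicate 2 (0.11) or 3 (0.15), without VNP2 replicate 2 (0.071) or 3 (0.072), and when transcript lengths were left out of the fit (0.061).

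HS6ST2 (chromosome X, 132626016 to 132961395, minus strand) had 3249 and 3218 normalized counts on Matrigel, against 3117, 3281 and 3216 on VN and 3126, 3189 and 3144 on VNP2. The VN libraries lay on both sides of those on Matrigel, and the VNP2 libraries lay just below them. Its log2 fold change was -0.01 ± 0.04 on VN (interval -0.10 to 0.07, adjusted p = 0.86) and -0.04 ± 0.04 on VNP2 (interval -0.12 to 0.05, adjusted p = 0.61). The ratio of HS6ST1 to HS6ST2 in TPM was 1.48 and 1.52 on Matrigel, 1.22 to 1.43 on VN and 1.31 to 1.37 on VNP2, and the summed TPM of the pair was 94.4 and 95.8, 90.1 to 92.5 and 90.7 to 91.2 in the same order. Both the ratio and the sum were lower in every library on VN and VNP2 than on Matrigel, a difference given without a test of its own.

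**Figure D2:**
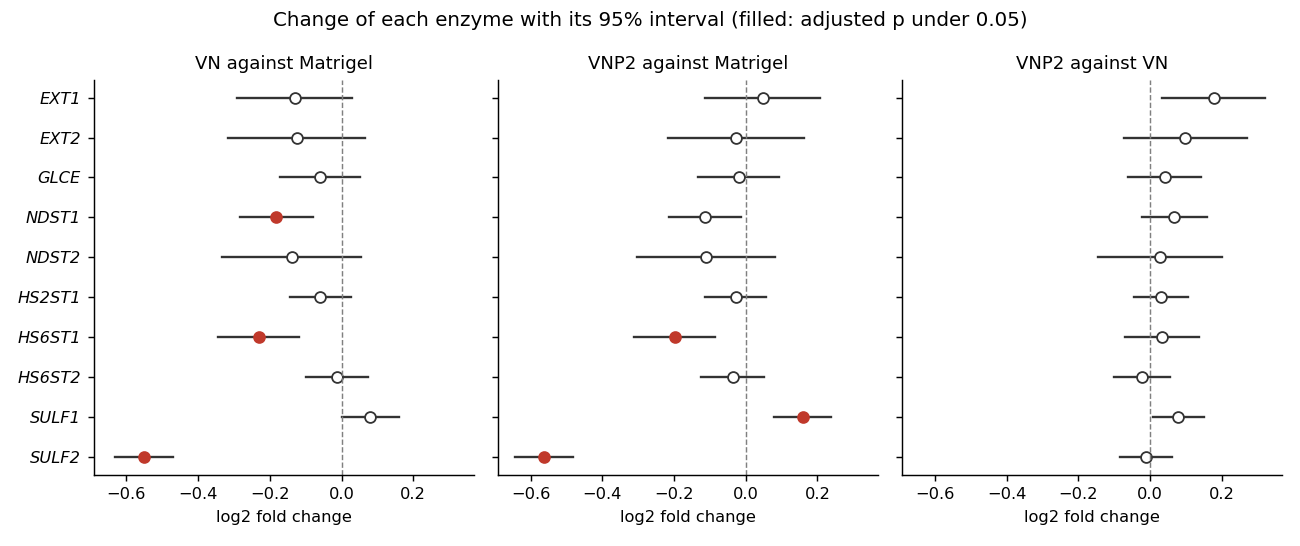
Log2 fold change of each of the 10 enzymes (horizontal axis) in the comparisons VN against Matrigel, VNP2 against Matrigel and VNP2 against VN; points are edgeR estimates, lines their 95% intervals, and filled points have an adjusted p under 0.05. SULF2, at -0.55 and -0.56, is the only member whose intervals lie below -0.4 in the first and second panels, and no point is filled in the third.

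SULF2 carried the largest difference of the 10. SULF2 (chromosome 20, 47656348 to 47786616, minus strand), whose promoter is printed above, had 7658 and 7684 normalized counts on Matrigel, against 5106, 5265 and 5333 on VN and 5068, 5214 and 5299 on VNP2. The 6 libraries on VN and VNP2 overlapped one another and lay far below both Matrigel libraries. SULF2 fell by 0.55 ± 0.04 on VN (interval -0.63 to -0.47, adjusted p = 5.1e-06) and by 0.56 ± 0.04 on VNP2 (interval -0.64 to -0.48, adjusted p = 3.0e-06), or -31.8% and -32.3%. Of the 1747 genes called lower on VN, 501 had a larger change, and so did 557 of the 1662 called lower on VNP2. Both calls held without each library in turn (adjusted p at most 0.00025). Of the 6657 exon bases of SULF2, 96 overlap exons of NCOA3 on the opposite strand, and reads of that overlap were not separated here.

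SULF1 (chromosome 8, 69466624 to 69660915, plus strand) removes the same sulfate groups as SULF2. It had 37422 and 36018 normalized counts on Matrigel, against 38951, 38363 and 39196 on VN and 41271, 39450.5 and 42316 on VNP2. The substrates did not overlap, with Matrigel the lowest and VNP2 the highest. The increase on VNP2 was small, 0.16 ± 0.04 (adjusted p = 0.012) or 11.7%, and that on VN was not called (0.08 ± 0.04, adjusted p = 0.16). The call on VNP2 was lost without Matrigel replicate 3 (adjusted p = 0.12) and when transcript lengths were left out of the fit (0.11, adjusted p = 0.098).

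In TPM the sum of SULF1 and SULF2 was higher in every library on VN and VNP2 than on Matrigel, a difference given without a test. It was 444 and 434 TPM on Matrigel, against 449, 457 and 468 on VN and 474, 459 and 491 on VNP2. TPM lacks the scaling between libraries used in the tests. Mean SULF1 was 355 TPM on Matrigel and 397 on VN, where the scaled fit gave a rise of 5.76% that was not called. Summed from the normalized counts above, the pair overlapped between Matrigel and VN and between Matrigel and VNP2. The higher sum thus depends on the scale. SULF1 exceeded SULF2 by 4.30 and 4.13 times in the Matrigel libraries. The ratio was 6.72, 6.42 and 6.47 on VN and 7.17, 6.66 and 7.03 on VNP2. Every library on VN and VNP2 was above both on Matrigel, while VN and VNP2 overlapped, and the ratio was given no test of its own. RNA levels say nothing here of sulfatase protein or activity.

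**Figure D3:**
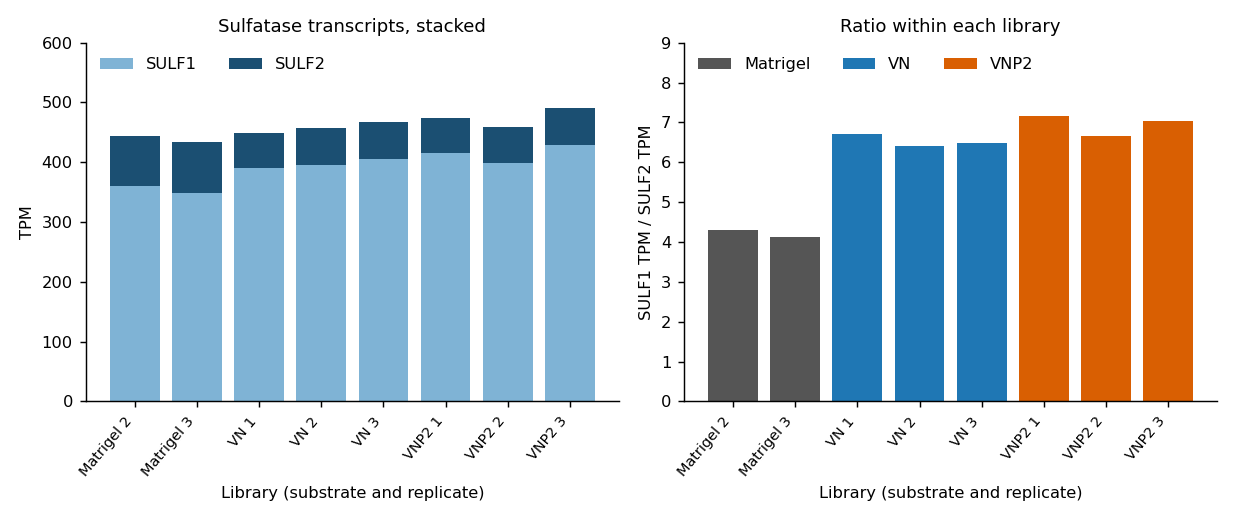
Left, TPM of SULF1 and SULF2 stacked for each of the 8 libraries; right, SULF1 TPM divided by SULF2 TPM in the same libraries, coloured by substrate. The stacks reach 434 to 491 TPM, and the ratio is 4.13 and 4.30 on Matrigel and 6.42 to 7.17 on VN and VNP2.

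VN and VNP2 were also compared with each other, to ask whether the peptide differed from the full-length protein. None of the 10 members was called by edgeR (5.1% of all tested genes were), 2 had an unadjusted p under 0.05 (SULF1 and EXT1, against 19.8% of all genes), and DESeq2 and limma also called 0. The libraries of 1 member, SULF1, did not overlap, against 23.6% of all genes. SULF2 differed by -0.01 ± 0.03 (interval -0.08 to 0.06) and HS6ST1 by 0.03 ± 0.05 (interval -0.07 to 0.14). The largest difference was that of EXT1, higher on VNP2 by 0.18 ± 0.06 (adjusted p = 0.16). Without VN replicate 1, EXT1 was called higher on VNP2 by 0.26 (adjusted p = 0.010) and EXT2 by 0.20 (adjusted p = 0.045), and no other member was. That fit called 1996 of 18124 genes between VNP2 and VN, in place of 928 of 18201.

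The members differed in how much of their abundance was in transcripts annotated as protein-coding. HS2ST1 and HS6ST2 were entirely so, and HS6ST1 nearly so, with 99.4% in the single transcript HS6ST1-201. For EXT1 the coding transcript EXT1-201, of 8270 bases, held 30.5% of the gene's TPM. The rest was in EXT1-203 (46.2%, 1446 bases) and EXT1-202 (23.3%, 840 bases), both annotated as targets of nonsense-mediated decay, and the shares of such short transcripts are estimates of Salmon from shared sequence. The TPM of EXT1 thus counts non-coding transcripts too, whereas 75.9% of the SULF1 and 92.5% of the SULF2 abundance was coding. The leading SULF2-211 held 66.9% of SULF2 on Matrigel, 68.0% on VN and 66.7% on VNP2, so its share moved little as the gene fell. SULF1-204 held 39.8%, 43.4% and 46.7% of SULF1 in the same order. The coding transcript SULF1-202 went the other way, from 26.6 and 23.9 TPM on Matrigel to 10.9 to 17.0 on VN and 0 in each VNP2 library. Whether this shift bears on the SULF1 call, which was lost when transcript lengths were left out, was not tested. NDST2 was spread over 6 transcripts with 5% or more, and 3857 of its 4654 exon bases are shared with the readthrough gene AC022400.6, which had 130 counts on average against 1146 for NDST2.

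Heparan sulfate needs further genes, and 48 of 49 listed were tested. On VN, 12 of the 48 were called, 3 higher and 9 lower, where 15.3% of all tested genes were called, and their median log2 fold change was -0.08. On VNP2, 18 were called, 7 higher and 11 lower, where 16.6% of all genes were, with a median of -0.06. Between VNP2 and VN 3 were called, where 5.1% of all genes were: GPC4 and UGP2 lower and HS3ST4 higher on VNP2. Without VN replicate 1 these counts were 16, 18 and 8, where 3899, 3608 and 1996 of 18124 genes were called. In the fit of all libraries 2778, 3016 and 928 of 18201 genes were. Of the 13 core proteins, to which the chains of EXT1 and EXT2 are attached, 6 were lower and 1 higher on VN, 6 lower and 2 higher on VNP2. GPC4, a glypican, fell from 26268 and 26413 normalized counts on Matrigel to 13588 to 14294 on VN and 11697 to 12499 on VNP2, by 0.91 ± 0.04 (adjusted p = 2.0e-07) and 1.13 ± 0.04 (adjusted p = 4.4e-08). The syndecan SDC4 fell by 0.81 and 1.01, the syndecan SDC2 by 0.57 and 0.63, and HSPG2, which encodes perlecan, by 0.57 and 0.70. GPC2 rose by 0.24 on both substrates. GPC4, SDC4, SDC2 and HSPG2 thus fell by as much as SULF2 or more, and the glypicans GPC3 (-0.16 and -0.15) and GPC6 (-0.17 and -0.27) by about as much as HS6ST1. The syndecan SDC3 rose by 0.14 on VNP2. The calls of GPC4, SDC4, SDC2 and HSPG2 held without each library in turn. That of GPC2 on VN was lost without Matrigel replicate 2 (adjusted p = 0.051), and those of GPC3 on both substrates, GPC6 on VN and SDC3 were lost without either Matrigel library (adjusted p = 0.069 to 0.20) and without 1 or 2 of the VN or VNP2 libraries. The calls of GPC6 on VN and of SDC3 on VNP2 were also lost when transcript lengths were left out of the fit. Without VN replicate 1, GPC6 was called lower (-0.12, adjusted p = 0.037) and SDC3 higher (0.11, adjusted p = 0.040) on VNP2 than on VN.

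Among sulfotransferases outside the 10 members, relatives of NDST1 and HS6ST1 went up at low levels. NDST3 rose from 253 and 249.5 normalized counts to 308, 354 and 319.6 on VN and 371, 368 and 415 on VNP2 (log2 0.38 and 0.61, adjusted p = 0.026 and 0.0018). NDST4 rose by 0.36 and 0.39, and HS6ST3, at 80.3 to 131 counts, by 0.57 on VNP2. HS3ST4, which adds a rarer sulfate at the third position, was at 170.3 to 218 counts on Matrigel and VN and at 344 to 379 on VNP2, higher than on VN by 0.84 ± 0.10 (adjusted p = 0.00099). HS3ST3B1 rose by 0.33 on VNP2. HS3ST5 fell by 1.51 and 1.84, from 47.8 and 79.1 counts to 12.7 to 27.5. Without Matrigel replicate 3 the calls of HS3ST5 (adjusted p = 0.18 and 0.083) and NDST4 (0.21 and 0.16) were lost on both substrates, as were those of NDST3 on VN (0.14) and of HS6ST3 (0.14) and HS3ST3B1 (0.12) on VNP2. Those of NDST3 on VN, HS6ST3 and HS3ST3B1 were also lost without Matrigel replicate 2 (0.12, 0.12 and 0.21), and each of these genes but HS3ST5 also lost a call without 1 to 3 single VN or VNP2 libraries. The call of HS6ST3 on VNP2 was also lost with DESeq2, with no filter on low counts and with the replicate number as a block. That of HS3ST3B1 was lost with DESeq2 and with limma at pseudocount 10. Those of NDST3 and NDST4 on VN were lost when only the libraries of the pair compared were fitted. HS3ST4 kept both calls throughout.

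The remaining classes lie before or after the steps of the 10 enzymes. None of the 7 genes for the linkage sugars that precede the work of EXT1 and EXT2, of the 3 EXTL genes or of the 2 heparanases was called by edgeR in any comparison, and 3, 2 and 0 of them had an unadjusted p under 0.05 on VN (30% of all genes did) and 0, 0 and 0 on VNP2 (29% of all genes). Of 6 genes that supply sugar nucleotides and sulfate donor, 3 were called lower on VNP2, where 9.13% of all genes were: UGP2 by 0.32, PAPSS1 by 0.17 and PAPSS2 by 0.29. UGP2 was also lower on VNP2 than on VN by 0.25 (adjusted p = 0.0039). Among 8 lysosomal genes IDS, the iduronate sulfatase, fell by 0.23 and 0.25, and NAGLU fell by 0.26 on VN. UGP2 kept its calls without each library in turn. Without Matrigel replicate 2 the calls of PAPSS1 (adjusted p = 0.21), PAPSS2 (0.16), IDS (0.091 on VN and 0.060 on VNP2) and NAGLU (0.38) were lost, and without Matrigel replicate 3 those of PAPSS1 (0.10), PAPSS2 (0.12) and IDS on VN (0.063). Without VN replicate 1, PAPSS1 (-0.15, adjusted p = 0.029) and PAPSS2 (-0.27, 0.045) were called lower on VN as well, as they were when transcript lengths were left out (0.048 and 0.0043). PAPSS1 and PAPSS2 also lost their calls on VNP2 without 2 or 3 single VNP2 libraries, and NAGLU without any 1 of the VN or VNP2 libraries. The edgeR call of NAGLU on VN (adjusted p = 0.047) was also lost in 7 of the 9 other fits, DESeq2 and both limma fits among them. That of PAPSS2 on VNP2 was lost with DESeq2.

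**Figure D4:**
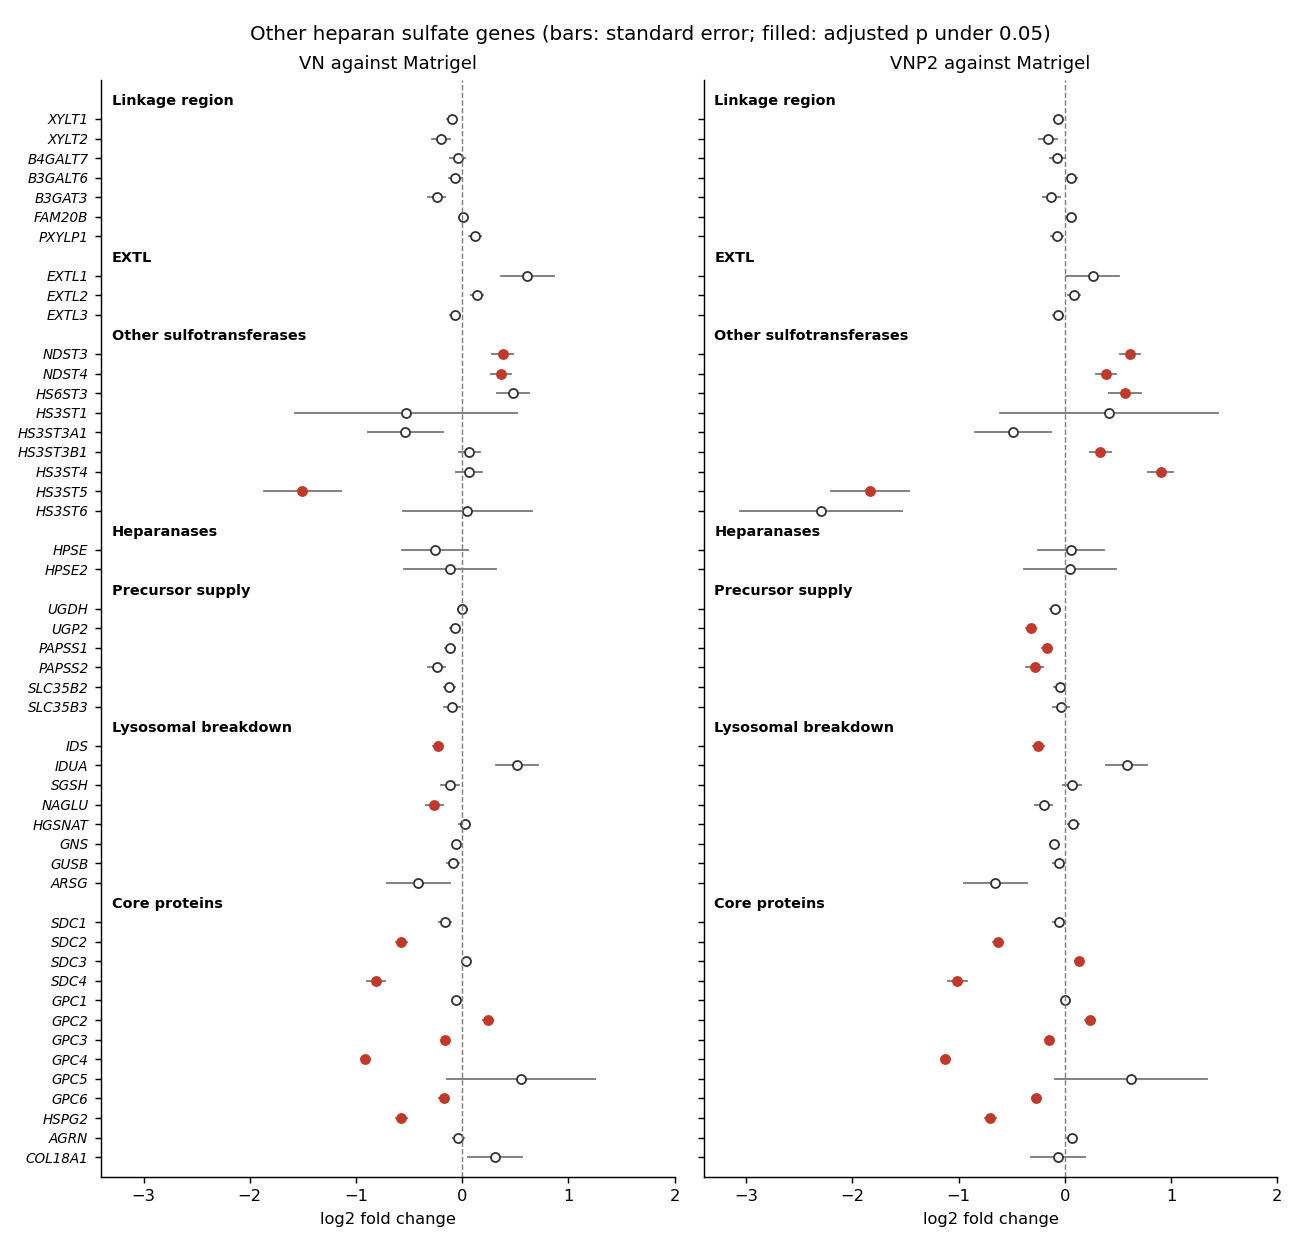
Log2 fold change of the 48 tested heparan sulfate genes outside the 10 members, grouped by role, on VN (left) and VNP2 (right) against Matrigel; lines are standard errors and filled points have an adjusted p under 0.05. The core proteins GPC4, SDC4, SDC2 and HSPG2 lie between -0.57 and -1.13 on both substrates, and no gene of the linkage region is filled.

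Markers of the cell types the cultures could hold moved with the substrates, and in bulk RNA fewer cells of a type and less RNA per cell cannot be told apart. Of all tested genes 5.66% were called higher and 9.6% lower on VN, and 7.44% and 9.13% on VNP2. The sums of markers below are in TPM, which lacks the scaling between libraries used in the tests. Mean NKX2-2 was 13.7 TPM on Matrigel and 15.4 on VN, where the scaled fit gave a rise of 5.66% that was not called. Small differences between sums therefore depend on the scale. Beside the fall of SULF2 and HS6ST1, the summed TPM of 7 OPC markers was 148 to 150.5 on Matrigel, 193 to 202 on VN and 193 to 202 on VNP2, with 3 and 6 of the 6 tested markers called higher. That of 8 neuronal markers was 821 to 854, 933 to 988 and 1014 to 1038, with 5 and 7 of the 8 called higher. For 7 neural crest markers it was 32.4 to 33.2, 15.1 to 17.6 and 20.7 to 22.4, with SOX10 and FOXD3 near 0. Of the 4 tested neural crest markers ETS1 fell by 1.38 and 0.97, while TFAP2A was called higher on VNP2 and the median log2 fold changes were 0.31 and 0.64.

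Floor plate markers, beside the level of SULF1, summed to 447 to 454, 456 to 468 and 528 to 547 TPM over 6 genes. Whether the small difference on VN holds on the scale of the tests was not tested. Of the 5 tested, 1 rose while 2 fell on VN, and 3 rose while 1 fell on VNP2. SHH, which encodes sonic hedgehog, fell by 0.50 and 0.62, and NTN1 fell by 0.30 on VN and rose by 0.28 on VNP2. The sums of 10 mesenchymal markers were 536 to 546, 607 to 644 and 527 to 564, with 3 rising while 2 fell on VN, and 5 rising while 2 fell on VNP2. Those of 7 pluripotency markers were 93.7 to 98.7, 85.4 to 88.4 and 77.004 to 80.5, with 1 rising while 1 fell on VN, and 1 rising while 4 fell on VNP2. On VN 6 of the 7 had a positive log2 fold change (median 0.30) although the sum was lower, and LIN28A fell by 0.56. The sums of 5 astrocyte markers, with GFAP and AQP4 at 0.401 TPM or less, were 20.6, 18.9 to 20.5 and 23.3 to 26.0. On VN 0 of 3 were called by edgeR (1 at an unadjusted p under 0.05, 0 by DESeq2 and limma), and SLC1A3 was called higher on VNP2. The part of these shifts in the results on the 10 enzymes was not tested.

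The genes whose pattern was most like that of SULF2 were sought among 12996 genes whose normalized counts averaged 100 or more, by the root mean square difference of depth-scaled log2 counts (CPM) centred over the 8 libraries. The closest were CAPN2 (0.0280), a calpain protease, TRAM2 (0.0299), TLN1 (0.0363), the integrin-binding talin, ENPP2 (0.0412), which encodes autotaxin, and PLS3 (0.0412), an actin-bundling plastin. CAPN2 went from 6699 and 6842 normalized counts on Matrigel to 4668 to 4763 on VN and 4619 to 4851 on VNP2. Like SULF2, each of the 5 was lower in all 6 libraries on VN and VNP2 than in both on Matrigel, by 0.47 to 0.61 on the log2 scale, which the choice by likeness fixes.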

How the data were processed

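RNA-seq of polyA RNA (TruSeq stranded mRNA libraries, paired ends) was analysed from 8 libraries of H9-derived OPCs. According to the methods the authors trimmed reads with TrimGalore and ran Salmon against GENCODE v32 transcripts of GRCh38.p13. The deposited estimated counts and TPM values are those of Salmon, per transcript and library. The table the authors deposited of normalized counts, a signal per gene, came from tximport and DESeq2 (1.27.12), and its values for the 10 members differed from those computed here by at most 0.103%.

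Estimated counts were summed per gene with GENCODE v29, through 205225 of 226608 transcripts (98.8 to 98.9% of counts), and rounded. Transcript-length offsets, TMM scaling and a filter (at least 10 counts in enough libraries, 15 in total) preceded the edgeR (4.0.16, R 4.3.3) quasi-likelihood test, one fit over 8 libraries with adjustment over 18201 genes. Normalized counts printed here are scaled for depth and length. Intervals (95%) and standard errors come from that fit. On simulated counts for VNP2 against Matrigel (17985 genes), 83 of 100 genes changed 1.5-fold and 98 of 100 changed 2-fold were called, with 6 unchanged genes. The changed genes averaged at least 100 counts, and the simulated spread was that of the fit. Smaller changes, such as those of HS6ST1, NDST1 and SULF1, were not simulated.

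DESeq2 (1.42.0), limma (3.58.1) on log2 of the deposited normalized counts (pseudocount 1 or 10), other scaling and filters, and each library left out were tried. Same-numbered libraries did not deviate together, so the numbers were taken as names only. The text names the 10 members, those of the 49 other listed heparan sulfate genes that were called (not all in full), the 5 genes most like the member with the widest range of group means, and marker lists as wholes. Members and lists were chosen with earlier results of these data known. Counting precision follows the depth, and intervals cover these libraries only.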

Additional observations from a re-analysis of the deposited data

How the results depend on the processing

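The calls of SULF2 against Matrigel held under all 17 alternatives run for each comparison, with log2 fold changes of -0.53 to -0.60. Leaving out 1 library at a time, the members called numbered 1 to 5 on VN, 1 to 3 on VNP2, 0 to 2 for VNP2 against VN and 1 to 6 across the 3 substrates. The lowest counts on VN and across the substrates came without either Matrigel library and that on VNP2 without Matrigel replicate 3, while the counts of 5, 2 and 6 came without VN replicate 1. For the other heparan sulfate genes these counts were 6 to 16, 10 to 18, 3 to 8 and 9 to 20. Calls over all genes moved too: without VN replicate 1, 3899, 3608, 1996 and 4975 of 18124 genes were called in the same order. In the fit of all libraries 2778, 3016, 928 and 3518 of 18201 were. Without either Matrigel library, fewer of all genes were called on VN, on VNP2 and across the substrates. The ranges are thus no result on these enzymes alone. Without length offsets 5 members were called on VN, where 3073 of 18201 genes were. With no filter on low counts 5 of the other genes were called for VNP2 against VN, where 1304 of 31592 genes were. With the replicate number as a block, 3, 3, 0 and 4 members were called (across substrates EXT1, adjusted p = 0.045, in place of NDST1, 0.083), and 3389, 3170, 1146 and 3992 of all genes in place of 2778, 3016, 928 and 3518; correlations between same-numbered libraries were -0.0996 to 0.139.

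Values near 0 changed sign in 25 cases, none of them called. Over the single libraries left out, those for VNP2 against VN ran from -0.0278 to 0.0059 for SULF2, -0.00074 to 0.0909 for HS6ST1, -0.0373 to 0.0949 for NDST2, -0.0151 to 0.0763 for NDST4, -0.0592 to 0.0114 for IDS, -0.0263 to 0.0251 for GPC2 and -0.0099 to 0.0356 for GPC3. Those on VN ran from -0.0289 to 0.0100 for HS6ST2 and -0.103 to 0.26 for HS3ST4, and on VNP2 from -0.0830 to 0.0119 for EXT2. Without length offsets the sign changed for GLCE on VN (0.0403) and for VNP2 against VN (-0.0431), for NDST2 (0.0280) and EXT1 (-0.0607) on VNP2, and for PAPSS2 (0.0132) and GPC2 (0.0258) for VNP2 against VN, and with the block for EXT1 on VNP2 (-0.00477). The cause was not tested. With 2 Matrigel libraries, the calls of HS6ST1 and NDST1 rest on both.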
